A study of Mus musculus with 24 samples.

Results

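The regions described here are 100 bp stretches of the mouse genome that had an MBD score of exactly 0 in at least 3 of 12 animals. They were picked by that count alone, over both exposures together, and 353 of the 1000 windows in the deposited table (35.3%) met it. The animals were male CD-1 mice, an outbred stock, examined at 19 weeks of age. The mothers of 6 of them took bisphenol A (BPA) orally at 500 ug/kg/day over gestational days 9 to 18, and the mothers of the other 6 took corn oil, the vehicle. All 12 were raised on the same 4% fat chow, and the labels do not say which were littermates. Epididymal fat was dissected from each, its DNA was sheared to 200 to 300 bp, and the fragments held by recombinant human MBD2 were sequenced.

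In mammalian DNA most cytosines that precede a guanine (CpG sites) carry a methyl group, while CpG-rich promoters of active genes are commonly free of it. MBD2 is a reader protein that binds methylated CpG, so a stretch gives reads when it is methylated and also holds enough CpG sites to be captured. BPA is a plasticizer with estrogen-like activity that crosses the placenta, and prenatal exposure has been studied for lasting marks on DNA methylation. The comparison of BPA with vehicle asks whether such a mark is seen in adult fat.

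A score of 0 is therefore not a direct reading of unmethylated DNA. No source used here defines the score or gives the read depth behind it, so absence of methylation and absence of reads cannot be told apart. No window was at 0 in all 12 animals, and the CpG sites of the windows were not counted. In bulk tissue a lower share of methylated cells and a lower share of methylated DNA in each cell cannot be told apart either. The windows are accordingly called windows at 0, by their score. Their positions are on mm9 and were not assigned to genes, since no annotation of that build was used here.

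The RNA of the same animals carried the defining transcripts of white fat. All 8 adipocyte markers were above 0 in the 12 RNA libraries, with adiponectin (Adipoq) at a normalized signal of 22030 to 41685. The summed signal of the 8 markers was 131969 to 215828 in BPA animals and 111294 to 214962 in vehicle animals. Markers of duct epithelium (8 genes) summed to 3649 to 21077 in BPA animals and 3785 to 14338 in vehicle animals. Amn and Pax2 were at 0 in some libraries. Dab2 (2052 to 6426) and Aqp1 (1150 to 1793) varied less over the libraries than Lrp2 (51.8 to 11906) and Pax8 (0.492 to 662). In BPA animal 4, with the lowest sum, Dab2 was at 2197 and Aqp1 at 1150, against 55.3 for Lrp2. A low sum was therefore not read as duct epithelium. The highest duct sums were in BPA animal 5 and vehicle animal 6, whose counts of windows at 0 were 185 and 167. BPA animal 2, with the next highest duct sum (9214), had 143 windows at 0. Vehicle animal 4, with the lowest vehicle duct sum (3785), had 185, and BPA animal 3 (4442) had 260. Motile cilia markers (6 genes) summed to 265 to 2267 in BPA animals and 397 to 2050 in vehicle animals, with Foxj1 at 0 in BPA animal 1. Epididymal epithelium markers (6 genes, of which 1 was above 0 in all libraries and Defb20 and Lcn5 were at or near 0 throughout) reached 41.6 at most in BPA animals, and 5641 in vehicle animal 6 and 750.9 in vehicle animal 4. Mesothelial markers (5 genes) summed to 286.2 to 1748 in BPA animals and 647.8 to 2404 in vehicle animals, and macrophage markers (5 genes) to 6589 to 8556 in BPA animals and 7761 to 16999 in vehicle animals. The part of these cells in the MBD scores was not tested.

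A pair of MBD libraries stood apart over the whole table, both of BPA animals. BPA animal 1 had a mean score of 0.697 over all windows and BPA animal 3 one of 0.332, against 0.429 to 0.477 in the remaining BPA animals and 0.415 to 0.489 in vehicle animals. Results that rest on these animals are given with and without them.

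The same order was seen at the 353 windows. BPA animal 1 was at 0 in 11 of them and BPA animal 3 in 260. BPA animals 2, 4, 5 and 6 were at 0 in 143, 152, 185 and 131, and vehicle animals 1 to 6 in 122, 140, 151, 185, 152 and 167. The most and the fewest windows at 0 were thus both found in BPA animals, on either side of the vehicle range. Vehicle animals 2, 3 and 5, which a header line of the RNA table marks as low for Fggy, a carbohydrate kinase gene, lay inside the range of the other vehicle animals.

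Averaged by exposure, 147 ± 81.2 windows were at 0 in a BPA animal and 152.8 ± 21.7 in a vehicle animal (SD, n = 6 each). Without BPA animal 1 the BPA mean was 174.2 ± 52.0 (SD, n = 5), above the vehicle mean, and without BPA animal 3 it was 124.4 ± 66.5 (SD, n = 5), below it. With both left out it was 152.8 ± 23.2 (SD, n = 4), the same as in vehicle animals to the precision given. The sign of the difference thus followed which of these libraries was kept, and the count gave no difference between exposures larger than the spread between animals. The other 647 windows kept the same order of animals at the extremes, with 0 windows at 0 in BPA animal 1, 72 in BPA animal 3, 9 to 29 in the remaining BPA animals and 8 to 37 in vehicle animals.

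**Figure D1:**
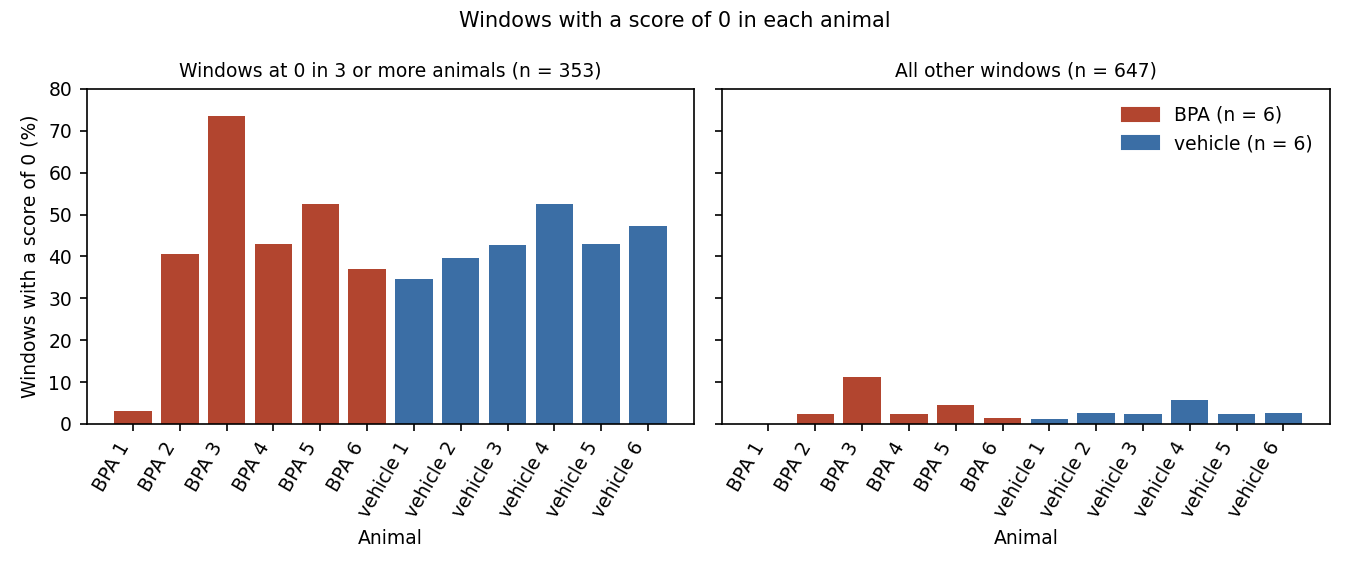
Percent of windows with a score of 0 in each animal, for the 353 windows at 0 in 3 or more animals (left) and the 647 other windows (right); red bars are BPA animals and blue bars vehicle animals. BPA animal 3 stands highest (73.7%) and BPA animal 1 lowest (3.12%) on the left, while vehicle animals lie between 34.6% and 52.4%.

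The windows differed in how many animals were at 0. Of the 353, 89 had 3 animals at 0, 69 had 4, 66 had 5 and 60 had 6. A further 28 windows had 7 animals at 0, 14 had 8, 15 had 9, 9 had 10 and 3 had 11, and no window of the table was at 0 in all 12. Together they held 1799 of the 2051 zeros in the table (87.7%), a share that the choice of windows sets.

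The 3 windows with 11 animals at 0 each had a single animal above it. At chr6:90938501-90938600 every BPA animal was at 0, and among vehicle animals only animal 1 was above it, at 0.03, the lowest score above 0 in the table. At chr4:103286701-103286800 the BPA animals were again at 0 and vehicle animal 1 was at 0.42. At chr7:8149801-8149900 the BPA animals were at 0 and vehicle animal 3 was at 0.42. In all 3 windows the lone animal was a vehicle animal, and not the same one each time.

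Of the 9 windows with 10 animals at 0, the 5 with the lowest summed scores differed in which pair of animals was above it. chrX:50623101-50623200 was at 0.14 in BPA animal 1 and at 0.14 in vehicle animal 2. chr4:123954501-123954600 was at 0.19 in BPA animal 1 and at 0.20 in vehicle animal 6. At 3 further windows both animals above 0 were BPA animals and the 6 vehicle animals were at 0. These were chr14:45044901-45045000 (0.31 in BPA animal 1 and 0.32 in BPA animal 6), chr10:66999201-66999300 (0.32 in BPA animals 2 and 4) and chr8:36771201-36771300 (0.32 in BPA animal 1 and 0.33 in BPA animal 6). BPA animal 1, with the fewest zeros of all, was thus above 0 in 4 of these 5 windows.

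The threshold of 3 falls within a gradual series. Of windows with 3 animals at 0, the mean score over the 12 animals was 0.178 to 0.482 with a median of 0.375, and for the 71 windows with 2 animals at 0 it was 0.269 to 0.505 with a median of 0.416. Just inside, the lowest summed scores were at chr7:26355001-26355100, chr10:7734901-7735000 and chr12:19097401-19097500, with highest scores of 0.40, 0.52 and 0.56. Just outside they were at chr4:42967101-42967200, chr11:89697401-89697500 and chr1:192357101-192357200, with highest scores of 0.52, 0.51 and 0.54. The mean scores on both sides of the threshold thus overlapped.

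Where the score was above 0, it took few values. In each animal other than BPA animal 1, between 9 and 18 different scores above 0 covered the 353 windows, and the 3 most common of them made up 75.2% to 89.2% of its scores above 0. The most common was 0.42 to 0.44 in each of these 11 animals, and the next was 0.51 to 0.53. Little lay below: of 2437 scores above 0 in these windows 57 were under 0.3, and 5 were at 0.1 or less. Scores of 0.41 and above made up 2216 of them. Few scores thus filled the range between 0 and the most common value. No source used here says whether the scale is linear or logarithmic, and repeated values of this kind could come from very few reads per window. A score of 0 beside 0.42 may therefore be a difference of very few reads, and a difference in score is not a known difference in methylation.

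BPA animal 1 spread over 36 different scores above 0 at the same windows. Its most common scores were 0.62, 0.59 and 0.55, and its median score above 0 was 0.59. In BPA animals 2 to 6 that median was 0.42 to 0.44, and in vehicle animals 0.42 to 0.43. BPA animal 1 had the highest score of all animals, ties included, at 275 of the 353 windows. The scale is the authors' own and the depth of this library is unknown, so its higher scores were not read as more methylation.

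**Figure D2:**
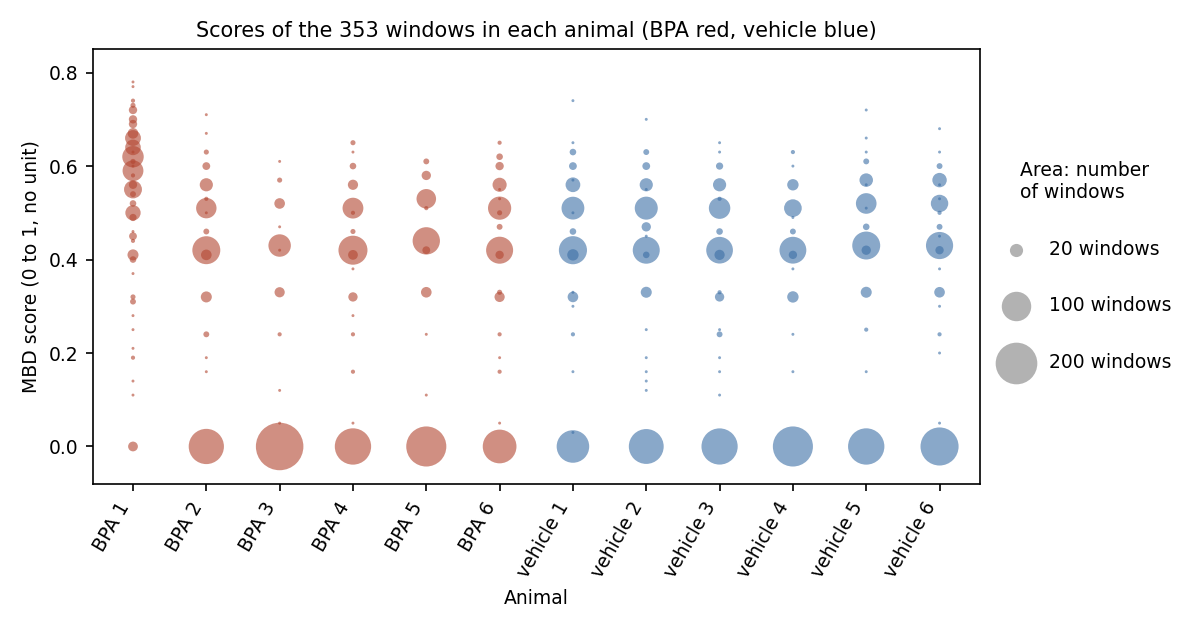
MBD score (vertical axis, 0 to 1) of the 353 windows in each animal, where the area of a circle is the number of windows at that score; BPA animals are red and vehicle animals blue. Apart from BPA animal 1, circles gather at 0, at 0.42 to 0.44 and at 0.51 to 0.53.

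The lowest score above 0 that a window reached also fell into a few classes. It was 0.41 to 0.44 at 283 of the 353 windows, between 0.31 and 0.36 at 50, at 0.3 or less at 17 and at 0.45 or more at 3. Of the other 647 windows it was 0.41 to 0.44 at 218, between 0.31 and 0.36 at 86, 0.37 to 0.40 at 17, 0.3 or less at 31 and 0.45 or more at 295. The classes below 0.41 were thus present in both sets of windows. Some windows stayed low throughout, since 21 of the 353 had no score above 0.40 in any animal, against 0 of the other 647. chr7:26355001-26355100 is one of them, with scores of 0.16 or 0.40 in the 3 BPA animals above 0 and of 0.16, 0.25 or 0.30 in the vehicle animals. At the upper end no window at 0 in 3 or more animals exceeded 0.78, while scores up to 1 occurred among the other windows.

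Over all scores above 0, the 353 windows lay lower than the rest in every animal. Their median was 0.59 in BPA animal 1 against 0.78 at the other windows, 0.43 against 0.52 in BPA animal 3, and 0.42 to 0.44 against 0.57 to 0.60 in the remaining BPA animals. In vehicle animals it was 0.42 to 0.43 against 0.56 to 0.60. An animal's own zeros helped to choose the windows, so each animal was then set against windows chosen on the other 11 only.

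Chosen in that way, windows at 0 in 3 or more of the other 11 animals were more often at 0 in the left-out animal as well. Its share at 0 was 31.9% to 69.2% over the 11 animals other than BPA animal 1, against 3.33% to 17.6% of the windows that did not meet the count. In BPA animal 1 the shares were 3.12% and 0%. The share was higher in 12 of 12 animals, 6 of each exposure, and the median score above 0 was lower in 12 of 12. Each of the 12 sets was part of the 353 windows and held 302 to 353 of them, so the 12 outcomes are not independent. The low scores of these windows recurred in each left-out animal, for a reason that was not tested.

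BPA animal 1 shows this most finely, because it was so rarely at 0 itself and the choice of windows is unchanged without it (353 of 353 windows are shared). Its median score was 0.81 at the 466 windows where no other animal was at 0, 0.64 where 3 others were, 0.59 where 5 or 6 were and 0.50 where 8 were. Where 9 others were at 0 it was 0.32, and where 10 were it was 0.165. Its own 11 zeros fell on windows where at least 7 of the others were at 0. These values are across windows of a single library and carry no test.

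**Figure D3:**
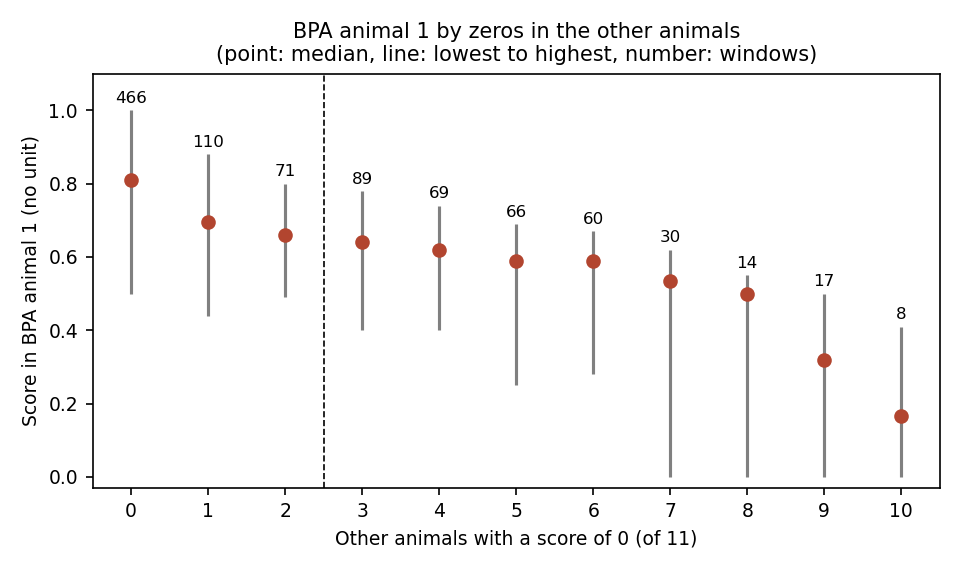
Score in BPA animal 1 (vertical axis) by how many of the other 11 animals had a score of 0 (horizontal axis); points are medians over windows, lines run from the lowest to the highest window, numbers above are windows, and the dashed line marks the count of 3. The median steps down from 0.81 with no other animal at 0 to 0.165 with 10.

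Within the set, the scores of different animals were only weakly correlated. Over the 353 windows, Pearson's r between the scores of 2 animals ran from -0.087 to 0.194 over the 55 pairs without BPA animal 1 (median 0.088, and Spearman's rho -0.087 to 0.230). It ran from 0.177 to 0.453 over the 11 pairs with it. Over all 1000 windows the same 55 pairs had r of 0.528 to 0.611. The median r within BPA (10 pairs, 0.087), within vehicle (15 pairs, 0.064) and between exposures (30 pairs, 0.098) lay close together. The part of the choice of windows by their zeros in this lower r was not tested, and windows are not replicates.

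Zeros were found in both exposures at 341 of the 353 windows (96.6%). The count of 3 or more zeros favours this outcome, since the 110 windows of the table with 1 zero cannot have it. The share with zeros in both exposures was not counted over all 534 windows with a zero. At the 353 windows, BPA animals held 882 zeros and vehicle animals 917. More BPA than vehicle animals were at 0 at 128 windows, fewer at 150, and equally many at 75. Without BPA animal 1 the share of animals at 0 was higher in BPA at 201 windows and lower at 152, without BPA animal 3 it was higher at 143 and lower at 210, and without both it was higher at 153, lower at 168 and equal at 32. The balance of zeros between exposures thus turned with these libraries. Windows with zeros in both exposures stayed at 341 in number without BPA animal 1, and were 316 without BPA animal 3. With all animals counted, the numbers of BPA and vehicle animals at 0 differed by at most 1 at 243 windows, and by 4 or more at 3. All 6 BPA animals were at 0 at 6 windows, and all 6 vehicle animals at 6 others.

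**Figure D4:**
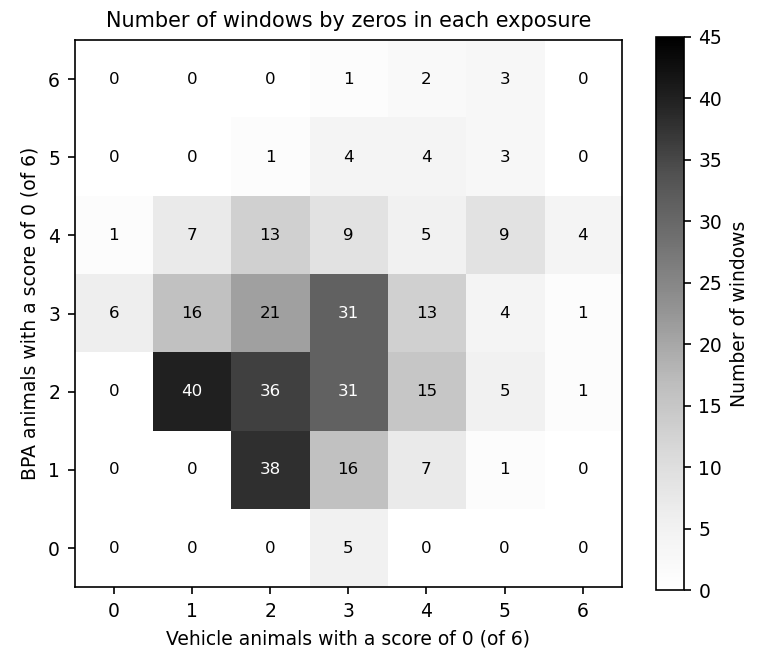
Number of windows (printed in each cell) by how many of 6 BPA animals (vertical axis) and of 6 vehicle animals (horizontal axis) had a score of 0; cells with fewer than 3 animals in all are 0 by the choice of windows. Most windows lie near the diagonal, and the corner cells with 6 animals of one exposure and 0 of the other are empty.

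Zeros confined to 1 exposure were found at 12 windows, 7 with BPA animals only and 5 with vehicle animals only. The most one-sided was chr4:62218401-62218500, with 4 BPA animals at 0. Its score was 0 to 0.59 with a median of 0 in BPA animals, against 0.42 to 0.52 with a median of 0.51 in vehicle animals. The others had 3 animals at 0. Those with BPA zeros include chr7:116396201-116396300 (BPA 0 to 0.62, vehicle 0.42 to 0.57), chrX:133895701-133895800 (BPA 0 to 0.64, vehicle 0.42 to 0.57), chr4:109594901-109595000 (BPA 0 to 0.67, vehicle 0.42 to 0.56) and chr7:26355001-26355100. In each of these, BPA animals reached both lower and higher scores than vehicle animals, and the highest was BPA animal 1. BPA animal 3, the library with the most zeros, was at 0 at all 7 windows with zeros in BPA animals only.

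Windows with zeros in vehicle animals only include chr13:115949901-115950000, at 0.42 to 0.64 in BPA animals (median 0.51) against 0 to 0.42 in vehicle animals (median 0.21). chr7:74608701-74608800 was at 0.32 to 0.56 in BPA animals against 0 to 0.41 in vehicle animals, and chr18:71941601-71941700 at 0.42 to 0.67 against 0 to 0.63. Vehicle animal 6 was at 0 at all 5 windows with zeros in vehicle animals only. The two-sided Fisher's exact test of animals at 0 called 0 of the 534 windows with any zero after Benjamini-Hochberg adjustment (0% called), and 0 at an unadjusted p under 0.05. Its smallest p, 0.0606 by that exact test, belongs to chr4:62218401-62218500 and to chr13:99816801-99816900, where 2 BPA and 6 vehicle animals were at 0. With 6 animals per exposure, 3 zeros all in 1 exposure give p of 0.182 by Fisher's exact test, and 4 give 0.0606. Windows with 4 zeros or fewer, among them 89 with 3 and 69 with 4, could therefore not reach 0.05. That none of them was called was set by the design.

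The scores themselves were compared between exposures with limma over all 1000 windows. With Benjamini-Hochberg adjustment at 0.05, 0 of 1000 windows were called (0%), and the limma adjusted p was 1 for each of the 353. At an unadjusted p under 0.05 limma gave 9 of the 353, 7 higher and 2 lower in BPA, beside 14 of all 1000 (1.4%, with 1.2% higher and 0.2% lower). An exact permutation test of each window gave 6 of the 353 and 11 of 1000 (1.1%). Without BPA animal 1 the limma count was 17 of the 353, beside 34 of all 1000 (3.4%). Without BPA animal 3 it was 17 beside 29 (2.9%), without vehicle animal 2 it was 15 beside 20 (2%), and without both BPA animals it was 20 beside 37 (3.7%). The 353 are part of the 1000, so these counts are not independent. With all animals kept, 5 of the other 647 windows were at an unadjusted limma p under 0.05 (0.773%), beside 2.55% of the 353.

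The median difference over the 353 windows was 0.022 (BPA minus vehicle), beside 0.017 over all windows. Of the 353, 206 were higher in BPA, 142 lower and 5 equal, beside 646 higher, 337 lower and 17 equal of all 1000. Without BPA animal 1 the median was -0.031, without BPA animal 3 it was 0.060, and without both it was 0.0033, so the sign followed these libraries here too. The mean score over the 353 windows was 0.284 ± 0.148 in BPA animals and 0.260 ± 0.031 in vehicle animals (SD, n = 6 each), and without BPA animals 1 and 3 it was 0.259 ± 0.029 (SD, n = 4) in BPA animals. The 95% interval of a single window's difference had a median half-width of 0.275, against 0.114 at the other windows. In no window of the table, 0 of 1000 (0%), did the BPA and vehicle scores fail to overlap.

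The window with the smallest limma p of those higher in BPA was chr13:99816801-99816900. Its score was 0 to 0.51 with a median of 0.43 in BPA animals and 0 in all 6 vehicle animals, a difference of 0.31 (95% interval 0.10 to 0.53). BPA animals 2 and 3 were at 0 there too, so the groups shared that value, and the exact permutation p was 0.0606. chr18:61579101-61579200 was above 0 in every BPA animal, at 0.43 to 0.72 with a median of 0.56, against 0 to 0.51 with a median of 0.21 in vehicle animals, a difference of 0.34 (0.10 to 0.58). Its exact permutation p of 0.00649 was the smallest of the table, and its adjusted value was 1. With 924 assignments and 1000 windows, no single window could pass that adjustment alone.

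At chr14:11394201-11394300 the score was 0 to 0.62 in BPA animals (median 0.435), with BPA animal 2 alone at 0, against 0 in 5 vehicle animals and 0.42 in vehicle animal 3. The difference was 0.34 (0.08 to 0.60). chr13:115949901-115950000, given above, had a difference of 0.30 (0.04 to 0.55). chrX:129899501-129899600, at 0 in 3 BPA animals and in all 6 vehicle animals, had one of 0.21 (0.02 to 0.39). By exact permutation, p was 0.0281 at chr14:11394201-11394300, 0.00866 at chr13:115949901-115950000 and 0.182 at chrX:129899501-129899600. None of these passed the adjustment.

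Of those lower in BPA, chr4:62218401-62218500 had the smallest limma p, with a difference of -0.32 (interval -0.58 to -0.05) and an exact permutation p of 0.0368. At chr4:119649401-119649500 all 6 BPA animals were at 0, while vehicle animals 1, 3 and 5 were at 0.42, 0.42 and 0.43 and the rest at 0. The difference there was -0.21 (-0.40 to -0.02), and the exact permutation p was 0.182. chr7:116396201-116396300 and chrX:133895701-133895800 had differences of -0.23 (-0.48 to 0.03) and -0.22 (-0.48 to 0.04). chr8:78700501-78700600, at 0 in all 6 BPA animals and at 0.42 in vehicle animals 1 and 3, had one of -0.14 (-0.31 to 0.03). The intervals of the last 3 span 0, and none of the 5 passed the adjustment.

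The windows lay on all 20 chromosomes of the table, as isolated stretches. None had a directly adjacent window in the table, and the nearest other window was a median of 940700 bp away, beside 948000 bp for the remaining windows. The closest pair was 500 bp apart, farther than the 200 to 300 bp of a fragment.

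Their share differed by chromosome and was highest on X. Of 51 windows on X 33 belonged to the set (64.7%, 95% Wilson interval 51.0% to 76.4%), and on chromosome 7 it was 34 of 59 (57.6%, 44.9% to 69.4%). The remaining chromosomes ranged from 43.6% on chromosome 2 to 13.0% on chromosome 19 (3 of 23, 4.54% to 32.1%). The intervals cover counting error only, and the chromosomes were singled out after their values were seen.

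All 12 animals are male, and male mouse cells carry a single X chromosome beside a pair of every autosome. The share of windows at 0 in each animal is given here as a description, since the same zeros made X stand out. In BPA animals it was 3.92% to 56.9% on X against 0.948% to 31.9% elsewhere, with BPA animal 1 lowest and BPA animal 3 highest in both. In vehicle animals it was 25.5% to 35.3% on X against 12.3% to 21.5% elsewhere. The median score above 0 on X was 0.64 in BPA animal 1 (0.70 elsewhere), 0.51 to 0.53 in the other BPA animals (0.51 to 0.56 elsewhere), and 0.51 to 0.52 in vehicle animals (0.52 to 0.57 elsewhere). BPA animal 3 had a median of 0.52 on X against 0.51 elsewhere. The part of X copy number in the zeros was not tested.

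On chromosome 7, singled out in the same way, the share at 0 was 3.39% to 52.5% against 0.956% to 32.0% elsewhere in BPA animals, and 18.6% to 35.6% against 12.6% to 21.4% elsewhere in vehicle animals. In BPA animal 2 the shares were close, at 16.9% on chromosome 7 and 15.8% elsewhere.

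**Figure D5:**
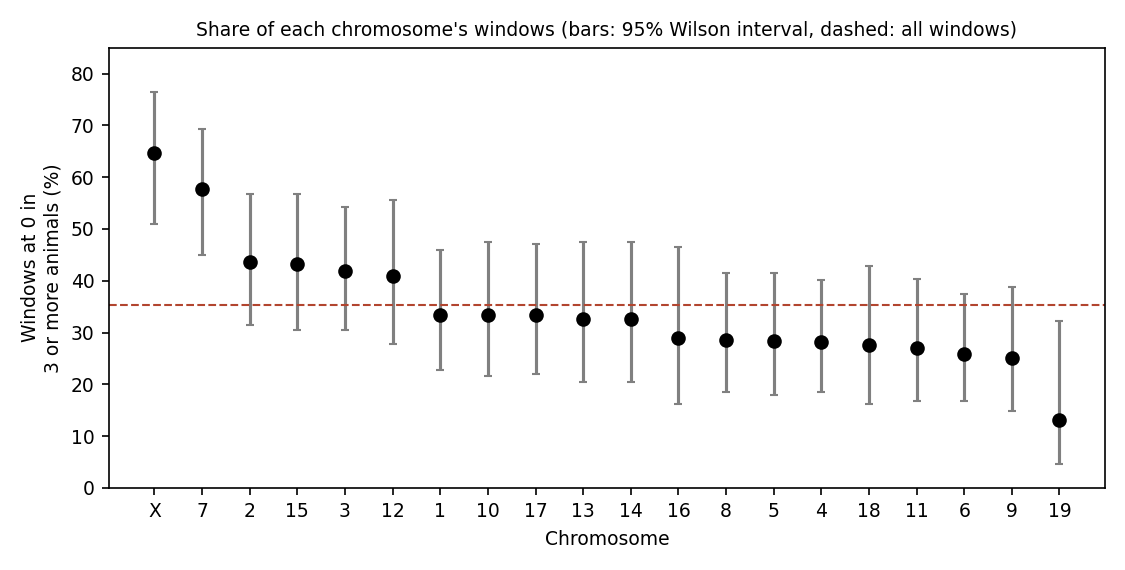
Share of each chromosome's windows that had a score of 0 in 3 or more animals (vertical axis, percent; points with 95% Wilson intervals), with the share of all windows, 35.3%, as a dashed line. The intervals of X and chromosome 7 lie wholly above the line and that of chromosome 19 below it.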

How the data were processed

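MBD-enriched DNA and ribosome-depleted RNA of the same 12 animals were sequenced with SOLiD kits, per the labels' protocols. Per the submitters' processing notes, the authors used edgeR and the build mm9. The aligner and the way the MBD score was made are not given in these sources, and depth is unknown. The MBD values are the authors' deposited score per 100 bp window, from 0 to 1 with 2 decimals, for 1000 windows whose selection is not described. The RNA values are the authors' deposited normalized signal per gene, used only to check the tissue. The 48 per-sample columns of narrowed RNA tables were not used.

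Windows at 0 in 3 or more animals were counted from the score. BPA was compared with vehicle by limma 3.58.1 (R 4.3.3) on the score, without a logarithm because of its bounds and zeros, with a variance trend, two-sided, adjusted by Benjamini-Hochberg over 1000 windows at 0.05. An exact permutation test over all 924 assignments and Fisher's exact test of zeros stood beside it. The scripts were tested on simulated data with a normal spread and hardly any zeros. That test does not cover windows with as many zeros as those described here. Alternatives were log2(score + 0.01), no trend, robust variance, a filter of 6 libraries above 0, a common median, the replicate block, other counts of zeros and leaving out each animal. P-values treat animals as independent. Windows named are those with the most zeros (8), the smallest p (5 per direction), zeros in 1 exposure (6), and 3 on each side of the threshold. The windows and marker lists were chosen with earlier results of these data known.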

Additional observations from a re-analysis of the deposited data

Results flagged for a closer look

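In some groups of 6 animals a single animal lay far from the others. Among 68 groups examined, 14 were marked, where chance marks about 1 in 20 of groups with independent, normally distributed values. The groups include windows picked for their zeros or a small p, so that rate does not hold for them. A window with 5 animals at 0 and a single one above it is marked by construction, and 8 of the 14 are of that kind. BPA animal 1 was far above the other BPA animals in its median score above 0, at 0.59 over the 353 windows and at 0.78 over the other windows. Vehicle animal 4 had 37 of the other windows at 0, the most of its group. The windows with a single animal above 0 in a group were chr6:90938501-90938600 (vehicle animal 1 at 0.03), chr4:103286701-103286800 (vehicle animal 1 at 0.42), chr7:8149801-8149900 (vehicle animal 3 at 0.42), chrX:50623101-50623200 (BPA animal 1 and vehicle animal 2, both at 0.14) and chr4:123954501-123954600 (BPA animal 1 at 0.19 and vehicle animal 6 at 0.20). At chr14:11394201-11394300 BPA animal 2 was at 0 with the rest of its group above it, and vehicle animal 3 was at 0.42 with the rest of its group at 0. At chr18:71941601-71941700 BPA animal 1 was at 0.67, and at chr10:7734901-7735000 vehicle animal 6 was at 0.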

How the results depend on the processing

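The limits are the unknown depth and meaning of the score, 6 animals per exposure, and 2 BPA libraries that stand apart. Limma called 0 of the windows under every alternative run (smallest adjusted p 0.8906, without BPA animal 3). The exact permutation and Fisher's exact tests also called 0 on all animals, but neither could have called a lone window. With 924 assignments, their smallest possible p passes the adjustment only if many windows reach it together. Their outcome is therefore no support for the limma result. Of the 353 windows, the count at an unadjusted p under 0.05 was 9 as reported (14 of all 1000), 16 with no trend (20 of all), 5 with the filter of 6 libraries above 0 (10 of 931), 20 without BPA animals 1 and 3 (37 of all, chosen after seeing the data), and 7 to 17 when each animal was left out in turn (12 to 34 of all). The median difference was 0.022 and ran from -0.031 (without BPA animal 1) to 0.060 (without BPA animal 3), and was 0.00012 on scores scaled to a common median. The set held 353 windows, 424 at 2 or more zeros, 264 at 4 or more, 129 at 6 or more, and 302 to 353 when an animal was left out and the count repeated. On sets remade in that way, BPA minus vehicle windows at 0 per animal was -5.83 and ran from -27.6 to 21.4, the highest without BPA animal 1. The X share was 29.4% at 6 or more zeros (12.9% of all windows), and the chromosome 7 share 33.9% at 4 or more (26.4% of all) and 20.3% at 6 or more, which was chosen after seeing the data. The cause was not tested for any of these. The differences at 14 named windows kept their sign and stayed uncalled in 276 of 276 alternatives. These windows were chosen for a small p or for zeros in 1 exposure in the same scores. The kept sign is thus largely set by the choice and is no support for a difference. Replicate numbers are only names here, since deviations of animals that share a number correlated between -0.0909 and 0.0127 and 0 BPA animals correlated best with their own number. With the replicate block 8 of the 353 windows, and 16 of all 1000, were at an unadjusted p under 0.05 and 0 were called.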
